A study of Mus musculus with 16 samples.

Results

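The difference between marginal zone (MZ) and follicular (FO) B-cells of the mouse spleen was measured by RNA-Seq in 8 libraries, 4 per subset, of a series of 16 libraries. The genes described were those with a mean RPKM (reads scaled to transcript length in kilobases and to the size of the library) over 1 in the 4 MZ or the 4 FO libraries, which left 11696 of the 38355 deposited genes. Each subset had 2 libraries from wild-type C57BL/6 mice (WT) and 2 from C57BL/6 mice with the genotype Mir-146a-/- (KO), which lack the gene of the microRNA miR-146a, and no treatment is named in the labels. The other 8 libraries held the immature transitional T1 and T2 B-cells of the same 2 genotypes. Each sample was sorted by flow cytometry from spleens pooled from 3 to 5 mice, so a library stands for a pool of animals, and the age of the mice used for RNA-Seq is not given in the sources used here. MZ B-cells were gated as CD23-, IgM high, CD21 high and negative for AA4, and FO B-cells as CD23+, IgM low, CD21 intermediate and negative for AA4. The labels do not say that replicate libraries came from separate sorts, so p-values measure the spread between these samples.

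MZ and FO B-cells are both mature B-cells that arise from transitional precursors in the spleen. MZ B-cells sit beside the marginal sinus, where they meet antigens carried by blood, respond fast with IgM to bacterial polysaccharides and lipids, and depend on NOTCH2 signals for their formation. FO B-cells recirculate between blood, spleen and lymph nodes, and enter germinal centers with the help of T cells. In bulk samples such as these, fewer cells of a type and less RNA per cell cannot be told apart.

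The markers of the 2 subsets followed the labels. Where 4 values are given for a subset, they stand in the order WT replicate 1, WT replicate 2, KO replicate 1 and KO replicate 2. Fcer2a, which encodes CD23, had 7.64, 23.2, 6.74 and 21.1 RPKM in the MZ libraries and 719, 751, 622 and 652 RPKM in the FO libraries. Cr2, which encodes CD21, had 767, 852, 974 and 723 RPKM in MZ and 160.2, 222, 215 and 199 RPKM in FO. Both proteins set the sorting gates, so their difference is a check of the sort and not a finding. Cd9, a tetraspanin of the MZ B-cell surface that was not used for sorting, had 59.1, 53.7, 56.8 and 47.1 RPKM in MZ and 2.37, 2.899, 2.41 and 2.53 RPKM in FO, with no overlap (log2 difference 4.16, standard error 0.08, adjusted p = 1.28e-07 from limma). Among the other gated molecules, Ighm was at 4752 ± 529 RPKM in MZ and 3814 ± 182 RPKM in FO, and Ptprc, the B220 gene, was at 274 ± 14.2 and 365 ± 8.398 RPKM (SD, n = 4 each). Cd93, which encodes the AA4 antigen, stayed under 3 RPKM in both but was higher in FO (log2 difference -1.68). It had 0.290, 0.356, 0.288 and 0.290 RPKM in MZ and 2.42, 2.55, 1.17 and 2.48 RPKM in FO, against 6.66 to 15.4 RPKM in T2.

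Reads assigned to genes ran from 13503388 (KO MZ replicate 1) to 18909029 (WT MZ replicate 2) in the MZ libraries. In the FO libraries they ran from 22348074 (KO FO replicate 1) to 26386684 (WT FO replicate 1). Every FO library was thus deeper than every MZ library, and the effect of this on low genes was not tested. Mir146, the deleted gene, had 1 read in each WT FO library and 0 in the other 6, which leaves the genotype labels without a check here. KO MZ replicate 1 stood apart: its Spearman correlation over genes with the other MZ libraries was 0.958 to 0.975, against 0.985 to 0.990 among those 3. It was also far lower than the other MZ libraries for the immediate early and heat shock list, whose summed level was 4518, 1663, 421 and 2319 RPKM in MZ and 4379, 1564, 963 and 2308 RPKM in FO. KO replicate 1 was also the lowest FO library for this list. Egr1, an immediate early gene, was lowest in KO replicate 1 of T1 (14.9 RPKM, other T1 libraries 188 to 444). The same held in T2 (61.2 RPKM, other T2 libraries 96.3 to 283). Results that rest on KO MZ replicate 1 are given with and without it, and the fit without it keeps KO FO replicate 1. General B-cell markers (Cd79a, Pax5 and others) were at similar summed levels, 5292 to 5823 RPKM in MZ and 4891 to 5258 RPKM in FO.

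A gene was called when its adjusted p was under 0.05 in limma with genotype as a covariate, its log2 difference was beyond 1 in size and its mean was over 1 RPKM in the higher subset. The log2 difference is MZ minus FO after adding 0.5 to each RPKM value before taking logs, a step that makes differences of low genes look smaller. By this rule 741 genes were higher in MZ B-cells (6.34% of the genes tested) and 449 were higher in FO B-cells (3.84%), together 10.2%. Counts of a list are set against these shares, and where a list had 0 calls in a direction, limma-voom on recovered reads also had 0 in 21 of 24 cases and 1 in the other 3. The split moved with the scaling: 62.3% of calls were higher in MZ on the deposited scale, and 52.2% (583 against 533 genes) after quantile normalization. Large differences leaned toward MZ, with 189 genes higher in MZ and 78 higher in FO by more than 2 on the log2 scale, 65 and 25 by more than 3, and 21 and 2 by more than 4. The 4 MZ and 4 FO values did not overlap for 1151 of the 1190 called genes, and did not overlap for 5728, or 49%, of all genes tested. The median log2 difference over all genes was 0.04 and the median standard error was 0.09. Of all genes tested, 6303 (53.9%) had a log2 difference above 0. Counts of list members above or below 0 are set against this share. At the threshold, Plekha1 (1.0012), Herc3 (1.0013) and Slc25a13 (1.0022) lay just inside a log2 difference of 1, and Tbc1d14 (-0.99999), Svip (0.99906) and Gm13565 (0.99895) just outside.

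**Figure D1:**
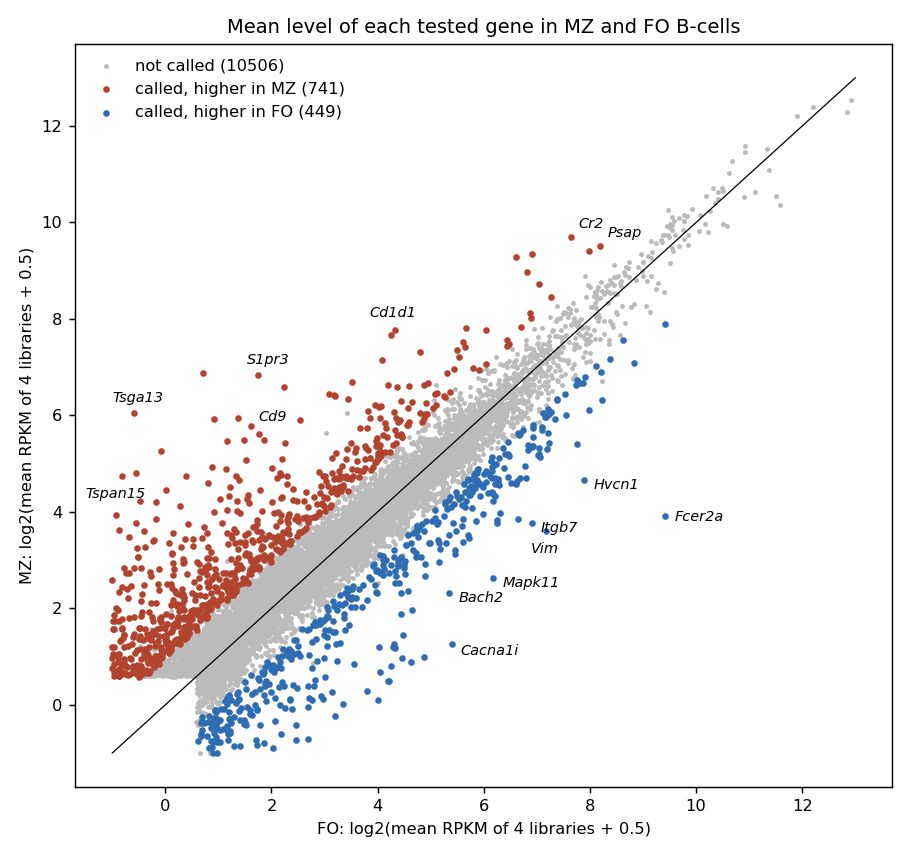
Mean RPKM of each tested gene in the 4 MZ libraries against its mean in the 4 FO libraries, both on log axes, with the 741 genes called higher in MZ and the 449 called higher in FO in color. Most genes lie near the line of equal levels, and the genes farthest above it, such as Tspan15 and Asb2, are near 0 in FO.

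The 12 largest differences in favor of MZ B-cells, by the rule for named genes given with the processing, were of genes with a mean under 3 RPKM in FO B-cells. Tsga13, a gene named for its expression in testis, led with 51.97, 71.01, 85.3 and 55.4 RPKM in the MZ libraries and 0.0664, 0.262, 0.196 and 0.141 RPKM in the FO libraries (log2 difference 6.62, standard error 0.17, adjusted p = 3.86e-07 from limma). I830077J02Rik, a gene without a functional name, followed with 102, 119, 147 and 96.7 RPKM in the MZ libraries and 0.485, 1.32, 1.21 and 1.52 RPKM in the FO libraries (log2 difference 6.19, standard error 0.22, adjusted p = 7.94e-07 from limma). Every MZ library exceeded every FO library for both genes. Tspan15, a tetraspanin that partners the protease ADAM10, had 29.2, 21.9, 25.8 and 27.6 RPKM in the MZ libraries and 0.02103, 0.0828, 0.0993 and 0.0672 RPKM in the FO libraries (log2 difference 5.55, standard error 0.101, adjusted p = 1.04e-07 from limma). The atypical CXCL12 receptor gene Cxcr7 had 29.2, 31.2, 19.02 and 31.1 RPKM in the MZ libraries and 0.1698, 0.102, 0.107 and 0.3495 RPKM in the FO libraries (log2 difference 5.35, standard error 0.19, adjusted p = 8.04e-07 from limma). Cxcr7 was lowest among the MZ libraries in KO replicate 1, and its log2 difference without that library was 5.54. Plxnd1, a receptor for semaphorins, was at 60.1 ± 6.79 RPKM in MZ and 1.39 ± 0.129 RPKM in FO (SD, n = 4 each). Other members of this set were the membrane metalloprotease gene Adam28 (log2 difference 4.81) and the platelet-activating factor hydrolase gene Pla2g7 (4.72). The CC chemokine scavenger receptor Ccbp2 (4.61) and Rap1gap (4.42), the gene of a GTPase-activating protein for Rap1, were members too. Asb2 and S1pr3 also belong to it and are described with their pathways. A share of 0.1098 of the Pla2g7 exon length overlaps another gene, and the library kit does not mark strand, so reads of the 2 genes cannot be separated there.

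By the same rule, the largest differences in favor of FO B-cells were smaller, from -3.46 to -4.18 on the log2 scale. The rule leaves out sorting markers, among them Fcer2a (-5.70). Cacna1i, a T-type calcium channel subunit, had 1.16, 2.14, 1.51 and 2.797 RPKM in the MZ libraries and 44.4, 42.3, 39.4 and 40.5 RPKM in the FO libraries (log2 difference -4.18, standard error 0.198, adjusted p = 3.06e-06 from limma). Pde2a, a phosphodiesterase that degrades cyclic nucleotides, had 1.205, 1.47, 1.47 and 1.85 RPKM in the MZ libraries and 26.96, 28.1, 27.1 and 32.9 RPKM in the FO libraries (log2 difference -3.88, standard error 0.09, adjusted p = 3.75e-07 from limma). Both were low in all 4 MZ libraries and spread little among the FO libraries. Vim, which encodes the intermediate filament vimentin, was the most abundant of the set with 7.08, 12.3, 7.26 and 20.05 RPKM in the MZ libraries and 163, 138, 134 and 139 RPKM in the FO libraries (log2 difference -3.68, standard error 0.31, adjusted p = 4.77e-05 from limma). Mapk11 and Mapk12, both genes of the p38 kinase family, were in this set. Mapk11 was at 5.67 ± 1.98 RPKM in MZ and 71.9 ± 5.15 RPKM in FO, and Mapk12 at 0.916 ± 0.453 and 17.8 ± 2.82 RPKM (SD, n = 4 each). The other members were the secreted protein gene Crisp3 (-3.88), the membrane protein gene Myadm (-3.77), Gm11346 (-3.72), Kctd14 (-3.55), the pseudokinase gene Trib2 (-3.53), the actin regulator Fam101b (-3.47) and the LIM protein gene Crip3 (-3.46). Ahnak, a giant scaffold protein gene, fell in the same range at -3.24, with 0.9805, 1.37, 1.43 and 3.21 RPKM in MZ and 24.1, 17.7, 17.5 and 19.1 RPKM in FO.

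**Figure D2:**
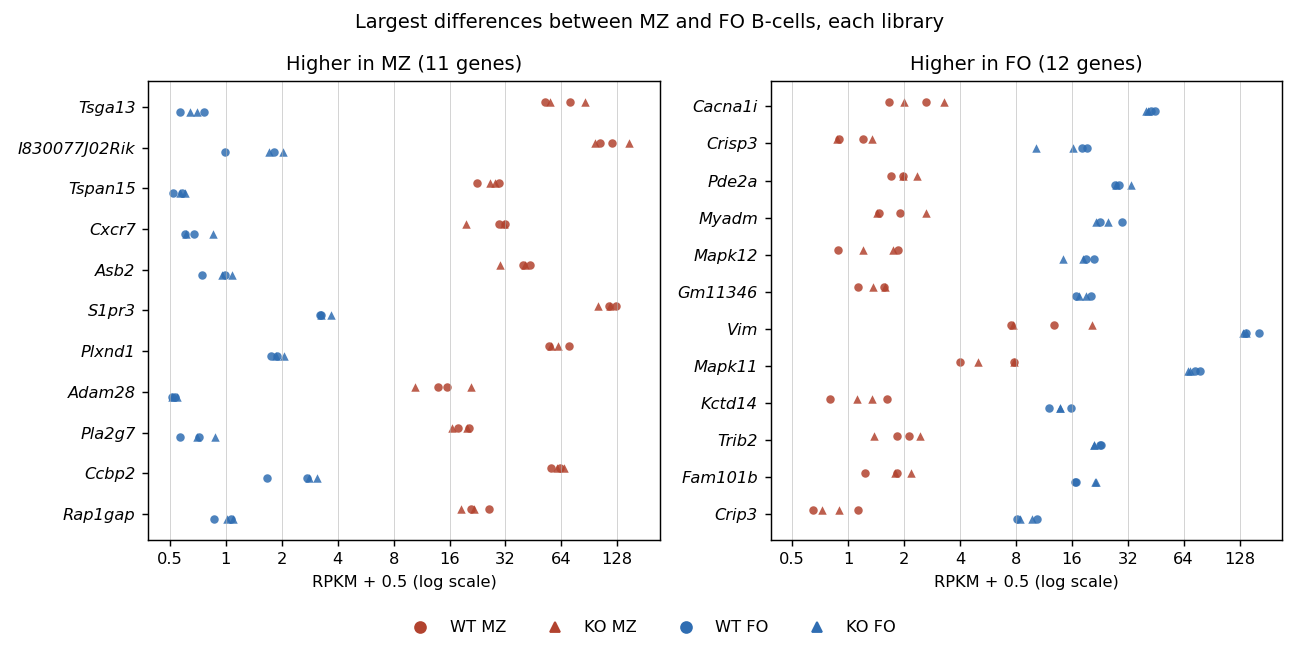
RPKM on a log axis of 11 of the 12 genes with the largest log2 difference in favor of MZ and the 12 in favor of FO, 1 point per library, with MZ and FO and the 2 genotypes marked. The genes follow the rule for named genes, which leaves out sorting markers. The 4 MZ and the 4 FO points of each gene form separate groups, and WT and KO points of a subset lie among each other.

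The most abundant called genes differed less in fold. Psap, the precursor of the lysosomal saposins, had 812, 703, 692 and 697 RPKM in the MZ libraries and 290.0, 282, 317 and 281 RPKM in the FO libraries (log2 difference 1.31, standard error 0.08, adjusted p = 7.29e-06 from limma). Ly6a, which encodes the surface protein Sca-1, was at 679 ± 51.1 RPKM in MZ and 253 ± 57.8 RPKM in FO. Pdia4, a disulfide isomerase of the endoplasmic reticulum, had the largest fold of this set with 583, 627, 682 and 615 RPKM in the MZ libraries and 78.7, 96.9, 106 and 105 RPKM in the FO libraries (log2 difference 2.698, standard error 0.08, adjusted p = 5.35e-07 from limma). Plac8 was at 502 ± 17.7 and 111 ± 13.8 RPKM, and Mzb1, an endoplasmic reticulum protein of MZ B-cells and plasma cells that assists IgM assembly, at 422 ± 21.6 and 132 ± 6.96 RPKM. On the FO side, Faim3, the Fc receptor for IgM, had 199, 264, 203 and 279 RPKM in the MZ libraries and 771, 697, 638 and 633 RPKM in the FO libraries (log2 difference -1.54, standard error 0.13, adjusted p = 5.24e-05 from limma). The lymphocyte GTPase genes Gimap3 and Gimap4 were -1.8995 and -1.33 on the log2 scale, and Gimap4 was no longer called when all 16 libraries were fitted together (adjusted p = 0.0919 from limma). Ptma (-1.04) has many processed pseudogenes, so its counts are uncertain, and its difference fell inside the threshold without WT FO replicate 1.

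Notch signaling directs B-cells to the MZ fate: a receptor is cut by ADAM10 and gamma-secretase, and its freed intracellular part joins the DNA-binding protein RBPJ and a Mastermind cofactor to switch on targets. Of 11 target genes tested, 7 were called higher in MZ, 0 higher in FO (1 at an unadjusted p under 0.05), and the median log2 difference was 1.395, against 6.34%, 3.84% and 0.04 over all genes. Of the 24 receptors, modifiers and cofactors tested, 1 was called higher in MZ (4.17%) and 2 higher in FO (8.33%), with a median of 0.07, set against the same shares over all genes.

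Dtx1, which encodes the ubiquitin ligase Deltex1 and lies on chromosome 5 from 120680202 to 120711927 in GRCm38, was the most abundant target with 259, 226, 193 and 222 RPKM in the MZ libraries and 49.5, 45.5, 62.9 and 43.7 RPKM in the FO libraries (log2 difference 2.15, standard error 0.13, adjusted p = 1.00e-05 from limma). Hes5, a transcriptional repressor gene on chromosome 4 from 154960923 to 154962371, had 4.62, 6.91, 9.24 and 8.26 RPKM in the MZ libraries and 0.751, 1.09, 1.02 and 1.15 RPKM in the FO libraries (log2 difference 2.33, standard error 0.16, adjusted p = 1.49e-05 from limma). The lowest MZ value of Hes5, in WT replicate 1, was above the highest FO value, and the KO libraries were the higher ones in MZ. Hes1, its relative, was at 43.6 ± 6.26 RPKM in MZ and 15.2 ± 1.95 RPKM in FO (log2 difference 1.49, standard error 0.13, adjusted p = 5.67e-05 from limma). Asb2, the substrate receptor of a ubiquitin ligase, had the largest difference of the list, with 42.7, 39.3, 29.4 and 40.2 RPKM in the MZ libraries and 0.246, 0.494, 0.455 and 0.581 RPKM in the FO libraries (log2 difference 5.35, standard error 0.15, adjusted p = 4.93e-07 from limma). The Deltex genes were split: Dtx3 (1.33) and Dtx4 (1.395) were called, while Dtx2 (-0.32) and Dtx3l (0.12) did not pass, nor did Nrarp (-0.07) or Trib1 (-0.23). Myc, counted here and among the growth genes, is the called target whose groups overlapped. Hey1, Hey2, Heyl and 4 other listed targets were under the level tested.

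Hes5 is shown because it is a direct target of RBPJ and because its start region was the only one of the listed Notch targets found in the promoter table that held the RBPJ motif GTGGGAA. The 250 bases before its annotated start are chr4:154960673-154960922 on the + strand of RefSeq GRCm38.p6, printed with the motif, on either strand, in capitals.
Hes5: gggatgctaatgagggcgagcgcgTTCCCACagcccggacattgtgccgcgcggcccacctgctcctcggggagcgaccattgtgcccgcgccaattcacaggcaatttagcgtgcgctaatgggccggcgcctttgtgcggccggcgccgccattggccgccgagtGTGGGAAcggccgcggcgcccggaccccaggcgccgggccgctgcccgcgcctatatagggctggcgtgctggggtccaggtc
The 2 matches face opposite ways and begin 226 and 83 bases before the start. The motif was found on either strand in 2097 of the 32851 promoters of the table, or 6.38%. The promoters of Nrarp, Dtx1, Dtx2, Dtx3l and Asb2 in the table held no match in this window, which says only that these letters are not there.

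Among the receptors and their modifiers, Notch2 itself was slightly lower in MZ, at 69.7 ± 5.69 RPKM against 82.3 ± 4.97 RPKM (log2 difference -0.24, standard error 0.07, adjusted p = 0.0229 from limma), within the fold limit of the call. Lfng, the Fringe glycosyltransferase that adds sugars to Notch receptors, was higher in FO with 6.95, 7.30, 6.13 and 8.05 RPKM in the MZ libraries and 28.6, 27.7, 32.001 and 27.99 RPKM in the FO libraries (log2 difference -1.96, standard error 0.09, adjusted p = 2.41e-06 from limma). Of the Mastermind cofactors, Maml3 was higher in FO (-1.704), Maml2 was at 22.2 RPKM in MZ and 11.9 RPKM in FO without passing the fold limit (0.87), and Maml1 was at -0.41. Aph1b, a subunit of gamma-secretase, was the member called higher in MZ (1.296), although it reached only 1.96 ± 0.191 RPKM, and with a pseudocount of 1 its difference was 0.98.

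Sphingosine-1-phosphate (S1P), which is high in blood, holds MZ B-cells at the marginal sinus through its receptors. Of 9 genes of this list tested, 2 were called higher in MZ and 3 higher in FO. S1pr3, on chromosome 13 from 51408639 to 51422797, had 126, 115, 101 and 116 RPKM in the MZ libraries and 2.71, 2.77, 3.19 and 2.74 RPKM in the FO libraries (log2 difference 5.096, standard error 0.08, adjusted p = 8.45e-08 from limma). S1pr1, the receptor that also serves exit from lymphoid organs, had 362, 346, 369.7 and 330.0 RPKM in the MZ libraries and 171, 142, 147 and 155 RPKM in the FO libraries (log2 difference 1.19, standard error 0.07, adjusted p = 8.70e-06 from limma). S1pr4 went the other way, with 12.1, 14.3, 13.3 and 14.6 RPKM in the MZ libraries and 54.8, 56.8, 64.9 and 53.4 RPKM in the FO libraries (log2 difference -2.04, standard error 0.08, adjusted p = 1.23e-06 from limma). Neither subset overlapped the other for any of the 3 receptors. By RPKM, a scale per transcript length, S1pr1 was the most abundant S1P receptor in both subsets, S1pr3 ranked second in MZ, and S1pr4 ranked second in FO. The S1P transporter gene Spns2 (-1.31) and the S1P phosphatase gene Sgpp2 (-1.15) were higher in FO, whereas Sgpl1 (0.11), Sgpp1 (0.07) and Sphk2 (-0.11) did not pass.

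Chemokine and positioning receptors differed in both directions, 7 higher in MZ and 2 higher in FO of 17 tested. Beside Cxcr7 and Ccbp2, those higher in MZ included the short-chain fatty acid receptor Ffar2 (4.16), Ccr1 (2.68) and the lysophospholipid receptors Gpr55 (2.63) and Gpr34 (2.26). Ccr7, the receptor that draws lymphocytes to T cell zones and lymph nodes, had 60.2, 34.2, 20.7 and 41.6 RPKM in the MZ libraries and 250.4, 101, 98.1 and 134 RPKM in the FO libraries (log2 difference -1.87, standard error 0.34, adjusted p = 0.00284 from limma). Its WT replicate 1 library was the highest in both subsets, and without KO MZ replicate 1 the log2 difference was -1.66 (adjusted p = 0.00835 from limma). Ccr6 was at 36.03 ± 7.31 RPKM in MZ and 84.01 ± 14.3 RPKM in FO (-1.22). Cxcr5, which guides B-cells to follicles, was abundant in both, at 200.4 RPKM in MZ and 184 RPKM in FO (0.13), and did not pass the fold limit, nor did Gpr183 (-0.44) or Cnr2 (-0.07). Cxcr4 was beyond the fold limit (-1.47) with an adjusted p of 0.0904 from limma, and was called without WT MZ replicate 1 (-1.94) or without WT FO replicate 2 (-1.92).

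**Figure D3:**
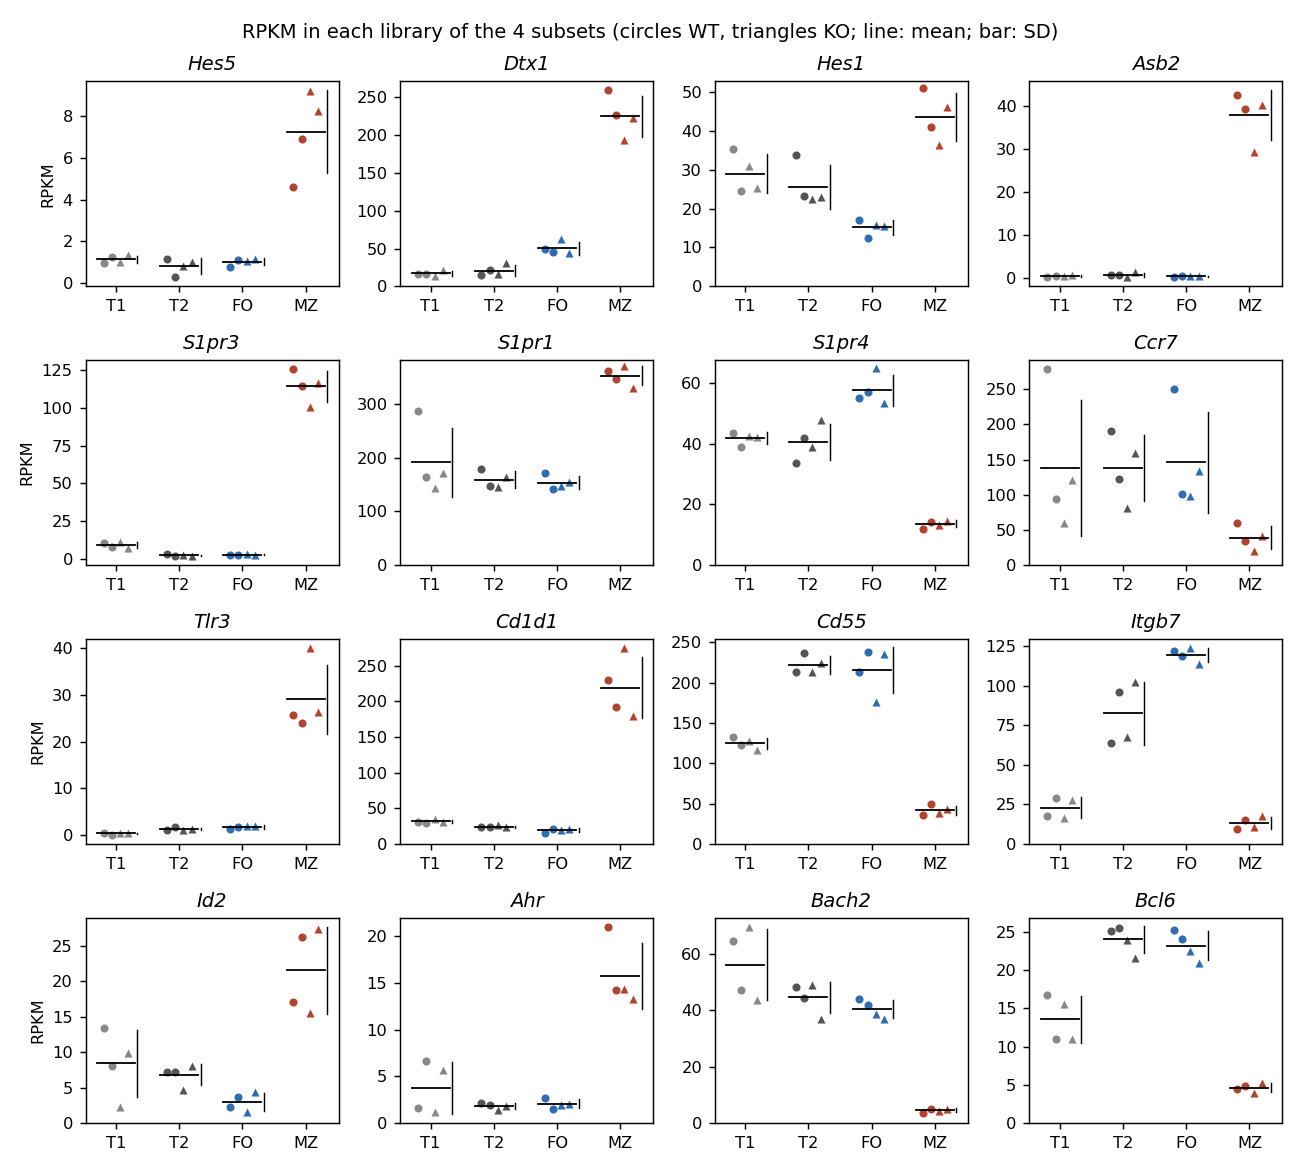
RPKM of 16 genes in the T1, T2, FO and MZ libraries, 4 libraries per subset as points, with the mean as a line and the SD as a bar. Hes5, Dtx1, Asb2, S1pr3, Tlr3 and Ahr are low in T1, T2 and FO and high in MZ, while Bach2 and Cd55 are lowest in MZ.

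Of 22 integrin and adhesion genes tested, 4 were called higher in MZ and 7 higher in FO, with a median of 0.29. Itgb1, the beta 1 chain, was at 29.2 ± 2.27 RPKM in MZ and 10.96 ± 1.01 RPKM in FO (log2 difference 1.38, standard error 0.06, adjusted p = 1.77e-06 from limma), whereas Itgb7, the beta 7 chain of the gut homing integrin, had 9.31, 14.9, 10.8 and 17.7 RPKM in the MZ libraries and 122, 119, 124 and 113 RPKM in the FO libraries (log2 difference -3.17, standard error 0.18, adjusted p = 7.34e-06 from limma). Their shared partner Itga4 was at 50.6 and 48.1 RPKM and was not called (0.07), nor was Itgal, the alpha chain of LFA-1 (0.63), or its partner Itgb2 (0.25). Also higher in FO were Alcam (-2.76), Itga6 (-2.24), Itgb3 (-1.65), Icam2 (-1.2001) and Selplg (-1.15). The other members higher in MZ, beside Ly6a, were Itgax (1.06) and Vcam1 (1.01), both under 3 RPKM in every library and also on the dendritic cell or macrophage marker lists. Itgax lost its call under 3 alternatives, among them without WT FO replicate 1 (0.95), and Vcam1 under 10, among them without WT MZ replicate 2 (adjusted p = 0.0731 from limma), KO MZ replicate 2, WT FO replicate 1 or KO FO replicate 1 (0.76 to 0.87).

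Cytoskeleton and migration regulators had 5 of 35 tested genes called higher in MZ and 3 higher in FO, with a median of -0.25. Rgs10, which shortens G protein signals, had 43.1, 40.99, 48.6 and 42.3 RPKM in the MZ libraries and 1.13, 1.77, 2.12 and 1.96 RPKM in the FO libraries (log2 difference 4.32, standard error 0.12, adjusted p = 4.45e-07 from limma), and its relatives Rgs18 (1.27) and Rgs3 (1.14) were also higher in MZ while Rgs13 (-1.79) was higher in FO. The actin-binding protein kinase C substrate Marcks (3.05, 141 RPKM in MZ and 16.5 RPKM in FO) and its relative Marcksl1 went opposite ways. Marcksl1 had 22.4, 19.7, 6.83 and 20.2 RPKM in the MZ libraries and 57.1, 39.9, 36.3 and 38.2 RPKM in the FO libraries (log2 difference -1.39, standard error 0.304, adjusted p = 0.006503 from limma), and without KO MZ replicate 1, its lowest library, the difference was -1.04 (adjusted p = 0.00107 from limma). Rhoh (-1.33) was higher in FO. Of 15 tetraspanins tested, Tspan15, Cd9 and Tspan31 (1.15) were called higher in MZ and 0 higher in FO (3 at an unadjusted p under 0.05), and Cd81 lay just under the limit (0.99, 123 against 61.3 RPKM).

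Among 53 B-cell transcription factors tested, 5 were called higher in MZ and 8 higher in FO, with a median of -0.15. Id2, which blocks E proteins, had 17.1, 26.3, 15.5 and 27.4 RPKM in the MZ libraries and 2.298, 3.66, 1.48 and 4.38 RPKM in the FO libraries (log2 difference 2.72, standard error 0.32, adjusted p = 2.91e-04 from limma). Its relative Id3 was higher in FO (-1.82, 11.04 against 40.1 RPKM). Ahr, the aryl hydrocarbon receptor gene, had 21.0, 14.2, 14.3 and 13.3 RPKM in the MZ libraries and 2.72, 1.52, 1.95 and 2.06 RPKM in the FO libraries (log2 difference 2.66, standard error 0.17, adjusted p = 1.34e-05 from limma). Tcf4 (1.09), Bhlhe41 (1.08) and Zbtb20 (1.04) were the other genes higher in MZ. Bhlhe41 fell inside the fold limit without WT FO replicate 2 (0.89), and Zbtb20 without KO MZ replicate 1 (0.87) or KO FO replicate 1 (0.97). Bach2, a repressor of plasma cell differentiation, had 3.67, 5.08, 4.25 and 5.001 RPKM in the MZ libraries and 44.1, 41.99, 38.5 and 36.9 RPKM in the FO libraries (log2 difference -3.04, standard error 0.11, adjusted p = 8.16e-07 from limma). Bcl6, the repressor that drives the germinal center program, had 4.42, 4.89, 3.902 and 5.26 RPKM in the MZ libraries and 25.3, 24.1, 22.6 and 21.01 RPKM in the FO libraries (log2 difference -2.22, standard error 0.09, adjusted p = 1.71e-06 from limma). For both repressors the lowest FO library was far above the highest MZ library. Tbx21 (-1.81), Satb1 (-1.5002), Fli1 (-1.19), Hhex (-1.17) and Mef2c (-1.06) were also higher in FO. The factors that define the B lineage were not called, with Pax5 at -0.197, Ebf1 at 0.13 and Pou2af1 at -0.06, and Irf4 (0.69) and Irf2 (-0.92) stayed under the fold limit.

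Krüppel-like factors hold lymphocytes in quiescence and guide their recirculation. Of 12 tested, 0 were called higher in MZ (1 at an unadjusted p under 0.05) and 2 higher in FO, Klf3 (-1.36) and Klf11 (-1.55). Klf3 was the steadier of the pair, with 19.4, 20.1, 19.7 and 20.8 RPKM in the MZ libraries and 54.1, 49.03, 54.2 and 50.6 RPKM in the FO libraries (log2 difference -1.36, standard error 0.05, adjusted p = 1.04e-06 from limma). Klf11 was lowest in KO MZ replicate 1, and without that library its difference was -1.16 (adjusted p = 0.0146 from limma). Klf2, named after its values were seen, had 211, 68.1, 9.66 and 131 RPKM in the MZ libraries and 533, 189.6, 215 and 263 RPKM in the FO libraries, and its log2 difference of -2.05 did not pass (adjusted p = 0.0691 from limma). Klf2 was called by limma-voom (adjusted p = 0.0435) and by limma in the fit of all 16 libraries (0.0391) and with the replicate block (0.0251). It was also called without WT MZ replicate 1 (0.0496) or KO MZ replicate 2 (0.0262). Without KO MZ replicate 1, its lowest library, Klf2 was not called. Its MZ values ranged from 9.66 to 211 RPKM and overlapped the FO values. Each MZ library was nevertheless below the FO library of its genotype and replicate number, although no label ties these numbers to a shared pool.

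Toll-like receptors (TLRs) sense microbial products. Of 23 TLR and adaptor genes tested, 4 were called higher in MZ, 0 higher in FO (4 at an unadjusted p under 0.05) and 18 had a log2 difference above 0 (median 0.42). Tlr3, the receptor for double-stranded RNA on chromosome 8 from 45395665 to 45411080, had 25.8, 23.98, 40.03 and 26.3 RPKM in the MZ libraries and 1.19, 1.804, 1.92 and 1.88 RPKM in the FO libraries (log2 difference 3.73, standard error 0.15, adjusted p = 1.23e-06 from limma). Ly96, which encodes MD-2, the partner of TLR4 in binding lipopolysaccharide, had 24.01, 26.4, 29.6 and 21.9 RPKM in the MZ libraries and 3.58, 5.303, 3.04 and 3.28 RPKM in the FO libraries (log2 difference 2.61, standard error 0.15, adjusted p = 7.73e-06 from limma). Tlr7, a receptor for single-stranded RNA, was at 59.7 RPKM in MZ and 20.8 RPKM in FO (1.51), and Cd180 at 187 and 85.9 RPKM (1.12). Tlr4 (0.56), Tlr9 (0.44), Tlr1 (0.18), Tlr2 (0.22) and the adaptor Myd88 (0.22) did not pass the fold limit.

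Complement genes differed in both directions. Of 8 tested, 3 were higher in MZ and 1 higher in FO. Cd55, which encodes decay accelerating factor, an inhibitor of complement on the cell surface, had 35.7, 49.4, 38.5 and 43.4 RPKM in the MZ libraries and 213, 238, 176 and 235 RPKM in the FO libraries (log2 difference -2.35, standard error 0.13, adjusted p = 5.34e-06 from limma). Cfp, the stabilizer properdin, was at 61.6 ± 12.9 RPKM in MZ and 14.002 ± 1.63 RPKM in FO (log2 difference 2.08, standard error 0.16, adjusted p = 3.26e-05 from limma). Cd59a, an inhibitor of the membrane attack complex, had 4.03, 3.65, 0.0409 and 2.23 RPKM in the MZ libraries and 0.0419, 0.118, 0.0247 and 0.0891 RPKM in the FO libraries (log2 difference 2.02, standard error 0.55, adjusted p = 0.0166 from limma). KO MZ replicate 1 was at the FO level for Cd59a, and without it the difference was 2.66 (adjusted p = 4.68e-05 from limma), whereas without WT FO replicate 1 the call was lost (adjusted p = 0.0512).

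CD1d presents lipids to natural killer T cells. Of 16 genes of lipid antigen presentation tested, 4 were higher in MZ, 2 higher in FO, 12 were above 0, and the median was 0.51. Cd1d1, on chromosome 3 from 86995834 to 86999441, had 230.0, 192, 275 and 179.8 RPKM in the MZ libraries and 16.03, 21.6, 19.2 and 21.3 RPKM in the FO libraries (log2 difference 3.44, standard error 0.15, adjusted p = 2.04e-06 from limma). Cd1d2, a near-identical copy whose reads may be divided uncertainly with Cd1d1, was at 9.19 ± 2.91 RPKM in MZ and 0.268 ± 0.0694 RPKM in FO. Cd36, a scavenger receptor for lipids, had 80.8, 82.2, 78.2 and 78.8 RPKM in the MZ libraries and 8.27, 11.9, 9.63 and 11.4 RPKM in the FO libraries (log2 difference 2.91, standard error 0.11, adjusted p = 1.05e-06 from limma), and Psap, described with the abundant genes, supplies the saposins that load lipids.

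Of 32 B-cell receptor (BCR) signaling genes tested, 1 was called higher in MZ and 3 higher in FO (median -0.08). The Src family kinase gene Blk, at 473 against 241 RPKM, lay just under the limit (0.97). Rasgrp3, which activates Ras (-1.58), the kinase gene Tec (-1.34) and Pik3cd, the catalytic subunit of PI3K delta (-1.003), were higher in FO. Pik3cd fell inside the fold limit under 8 alternatives, among them without KO MZ replicate 1 (-0.93), WT MZ replicate 1 (-0.97), WT FO replicate 1 (-0.99), KO FO replicate 1 (-0.997) or KO FO replicate 2 (-0.998). Cd79a (-0.43), Cd79b (-0.01), Syk (-0.19) and Btk (-0.395) did not pass.

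Among 24 inhibitory coreceptors and phosphatases, 5 were higher in MZ and 1 higher in FO. Fcrl5, an Fc receptor-like inhibitory receptor, had 204, 205, 198 and 204 RPKM in the MZ libraries and 16.4, 18.0, 20.2 and 19.9 RPKM in the FO libraries (log2 difference 3.42, standard error 0.06, adjusted p = 1.04e-07 from limma). The collagen receptor Lair1 was at 10.2 ± 0.798 RPKM in MZ and 0.367 ± 0.117 RPKM in FO (3.63). Lilrb4 (3.59), Cd300lf (3.28) and the phosphatase gene Ptpn22 (2.27) were also higher in MZ. Btla, the inhibitory receptor for HVEM, had 116, 154, 159.8 and 140.2 RPKM in the MZ libraries and 299, 391, 279 and 351 RPKM in the FO libraries (log2 difference -1.21, standard error 0.14, adjusted p = 2.71e-04 from limma). The classical BCR inhibitors Cd22 (-0.296), Fcgr2b (0.57) and Siglecg (0.603) were under the fold limit.

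Costimulatory and checkpoint genes had 3 of 21 higher in MZ and 4 higher in FO. Cd80, a ligand of CD28, was at 4.44 ± 0.825 RPKM in MZ and 0.763 ± 0.173 RPKM in FO (1.96), its relative Cd86 at 26.5 and 9.26 RPKM (1.46), and Cd274, which encodes PD-L1, had 130.5, 90.7, 75.6 and 95.7 RPKM in the MZ libraries and 33.7, 28.5, 23.8 and 28.96 RPKM in the FO libraries (log2 difference 1.74, standard error 0.14, adjusted p = 3.57e-05 from limma). Cd200 (-2.697), Slamf1 (-2.58), Cd83 (-1.37) and the ICOS ligand gene Icosl (-1.21) were higher in FO. Of 13 MHC class II genes tested, 12 had a log2 difference below 0 (median -0.39), and only Ciita, the master regulator of the class, was called. Ciita had 82.9, 87.1, 67.8 and 85.7 RPKM in the MZ libraries and 167, 166, 176 and 152 RPKM in the FO libraries (log2 difference -1.03, standard error 0.09, adjusted p = 4.39e-05 from limma), and its difference fell under the limit after quantile normalization (-0.98), without KO MZ replicate 1 (-0.95) and without KO FO replicate 1 (-0.98).

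Genes tied to antibody secretion were mixed. Of 19 plasma cell genes tested, 5 were higher in MZ and 2 higher in FO (median 0.37). Prdm1, which encodes the secretory regulator Blimp-1, had 6.63, 5.27, 4.06 and 4.72 RPKM in the MZ libraries and 0.807, 0.497, 0.481 and 0.529 RPKM in the FO libraries (log2 difference 2.39, standard error 0.13, adjusted p = 5.08e-06 from limma). Il10 had 11.9, 8.11, 0.848 and 10.7 RPKM in the MZ libraries and 0.376, 0.0325, 0.0342 and 0.3696 RPKM in the FO libraries (log2 difference 3.21, standard error 0.65, adjusted p = 0.00448 from limma), and without KO MZ replicate 1, its lowest MZ library, the difference was 3.97 (adjusted p = 5.35e-05 from limma). Mzb1 (1.68), Derl3 (1.299) and Edem1 (1.12), which serve folding and degradation in the endoplasmic reticulum, were higher in MZ. Sdc1, the plasma cell surface marker CD138, was higher in FO at 5.34, 3.79, 2.38 and 4.69 RPKM against at most 0.269 RPKM in MZ (log2 difference -2.76, standard error 0.23, adjusted p = 4.44e-05 from limma), as was Fkbp11 (-1.81). Xbp1 (0.19) was not called. Of 29 endoplasmic reticulum folding genes tested, Pdia4 was the single call, higher in MZ, and the median was 0.01.

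Of 13 immunoglobulin constant region and related genes tested, 2 were higher in MZ and 3 higher in FO. Ighg3, the IgG3 constant region, was at 34.1 ± 5.22 RPKM in MZ and 8.37 ± 4.598 RPKM in FO (2.09), and the J chain gene Igj was at 6.09, 8.19, 16.3 and 17.3 RPKM in MZ and 1.96, 3.596, 3.72 and 8.63 RPKM in FO (1.37), with overlap, and was lost in the fit of all 16 libraries (adjusted p = 0.0685). Fcgrt, the neonatal Fc receptor, had 2.03, 2.83, 1.49 and 2.49 RPKM in the MZ libraries and 22.4, 21.9, 21.5 and 20.9 RPKM in the FO libraries (log2 difference -3.06, standard error 0.14, adjusted p = 2.70e-06 from limma), and Ighg1 (-1.44) and Faim3 were the other genes higher in FO. Ighg1 lost its call under 8 alternatives, among them without WT MZ replicate 1, KO MZ replicate 1, KO MZ replicate 2, KO FO replicate 1 or KO FO replicate 2 (adjusted p = 0.0718 to 0.0850 from limma). Immunoglobulin and T cell receptor segments counted apart from the lists had 245 genes tested. Of these, 11 were higher in MZ and 43 higher in FO, set against 6.34% and 3.84% of all genes. Among these, 6 heavy chain V segments were higher in MZ and 12 in FO, 3 kappa V segments were higher in MZ and 25 in FO, and 1 lambda V segment was higher in MZ and 0 in FO. The number of segments tested in each class is not given, so these counts cannot be set against the shares over all genes. V segments share sequence, so their single values are uncertain.

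Myc, the growth regulator, had 221, 189, 58.03 and 214 RPKM in the MZ libraries and 83.8, 33.5, 28.5 and 52.9 RPKM in the FO libraries (log2 difference 1.73, standard error 0.46, adjusted p = 0.0149 from limma). For Myc, 3 of the 4 MZ libraries exceeded every FO library, and KO MZ replicate 1 did not. Without that library the difference was 2.14 (adjusted p = 0.00309 from limma). Of 24 genes of the list of Myc, D cyclins and quiescence, 2 were higher in MZ, Myc and its antagonist Mxd4 (1.34), and 1 was higher in FO, Cdkn2d, an inhibitor of CDK4 and CDK6, with 5.09, 5.99, 5.88 and 6.58 RPKM in the MZ libraries and 31.1, 29.4, 29.8 and 27.1 RPKM in the FO libraries (log2 difference -2.23, standard error 0.08, adjusted p = 9.74e-07 from limma). Ccnd3 (-0.45), Ccnd2 (-0.16) and Cdkn1b (-0.001) did not pass. Of 26 cell cycle genes, E2f1 (1.07) and Mki67 (1.04) were called higher in MZ at under 7 RPKM, and 0 higher in FO (7 at an unadjusted p under 0.05). E2f1 fell under the limit with a pseudocount of 1 (0.93) and after quantile normalization (0.87), and Mki67 lost its call under 6 alternatives, among them without WT MZ replicate 2 (0.83), WT FO replicate 1 (0.95) or WT FO replicate 2 (0.97).

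The BCL2 family had 1 of 14 genes called in each direction, the proapoptotic Bid higher in MZ (1.49, with a share of 0.177 of its exon length overlapping another gene) and the proapoptotic Bmf higher in FO, with 4.59, 4.62, 4.14 and 4.64 RPKM in the MZ libraries and 15.8, 17.5, 13.4 and 14.99 RPKM in the FO libraries (log2 difference -1.66, standard error 0.07, adjusted p = 1.90e-06 from limma). Bcl2 (0.13), Mcl1 (-0.31) and Bcl2l1 (-0.899) did not pass, although Bcl2l1 was called as higher in FO by limma-voom (-1.56), with a pseudocount of 0.1 (-1.37) and after quantile normalization (-1.18). Of 26 genes of BAFF reception and NF-kB, Traf1 was called higher in MZ, at 32.9 ± 3.61 RPKM against 11.8 ± 1.49 RPKM (1.44), and 0 higher in FO (11 at an unadjusted p under 0.05). The BAFF receptor Tnfrsf13c (-0.87), its relative TACI, encoded by Tnfrsf13b (0.16), and Nfkb1 (-0.37), Rela (-0.52) and Relb (-0.39) stayed under the fold limit.

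Cytokine receptors differed in both directions, with 4 of 23 tested higher in MZ and 4 higher in FO. Il9r had 168, 205, 123 and 143 RPKM in the MZ libraries and 23.7, 41.2, 22.7 and 21.1 RPKM in the FO libraries (log2 difference 2.56, standard error 0.16, adjusted p = 1.10e-05 from limma). Csf2rb, the common beta chain of the IL-3, IL-5 and GM-CSF receptors, was at 42.6 ± 2.98 RPKM in MZ and 4.26 ± 0.4004 RPKM in FO (3.18), and its near-identical copy Csf2rb2 (1.495) is uncertain for that reason. The fourth was Csf1r (1.01), at no more than 1.83 RPKM, which lost its call under 8 alternatives, among them without WT FO replicate 1 (0.91), KO FO replicate 1 (0.77) or KO MZ replicate 2 (0.88). Il4ra, the IL-4 receptor chain, had 23.2, 24.9, 19.7 and 24.997 RPKM in the MZ libraries and 106, 92.3, 98.99 and 91.4 RPKM in the FO libraries (log2 difference -2.04, standard error 0.08, adjusted p = 1.61e-06 from limma). Il21r, the receptor for the T helper cytokine IL-21, had 42.7, 48.7, 34.002 and 45.05 RPKM in the MZ libraries and 154, 152, 151 and 139 RPKM in the FO libraries (log2 difference -1.81, standard error 0.09, adjusted p = 4.56e-06 from limma). Il6ra (-1.64) and Il27ra (-1.08, inside the fold limit at -0.98 without WT MZ replicate 1) were also higher in FO.

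Cyclic nucleotide phosphodiesterases also differed in both directions. Of 13 phosphodiesterase and adenylyl cyclase genes tested, 3 were higher in MZ and 1, Pde2a, higher in FO. Pde4a had 21.9, 18.6, 20.4 and 18.8 RPKM in the MZ libraries and 2.25, 2.52, 2.68 and 2.29 RPKM in the FO libraries (log2 difference 2.799, standard error 0.08, adjusted p = 4.63e-07 from limma). Pde8a was at 17.99 RPKM in MZ and 3.52 RPKM in FO (2.21). Pde4d carries 2 gene identifiers in the annotation, and the one with the higher level was at 13.01 ± 2.405 RPKM in MZ and 0.842 ± 0.0809 RPKM in FO (3.32). Pde4b (-0.72) and Pde7a (-0.34) did not pass.

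Ion channels and transporters had 2 of 25 genes higher in MZ and 4 higher in FO. Hvcn1, the voltage-gated proton channel that supports oxidant production, had 20.5, 31.3, 18.98 and 28.9 RPKM in the MZ libraries and 242, 246, 233 and 226 RPKM in the FO libraries (log2 difference -3.25, standard error 0.16, adjusted p = 3.28e-06 from limma). A share of 0.442 of its exon length overlaps another gene, so part of these reads may belong elsewhere. Atp1b1, the sodium pump beta subunit (-2.86), Orai2 (-1.57) and Kcnj1 (-1.51) were also higher in FO. The potassium channel gene Kcnk5 was at 42.7 ± 5.43 RPKM in MZ and 10.8 ± 1.29 RPKM in FO (1.94), and Slc12a2 (1.06) lost its call without KO MZ replicate 1 (0.995) or WT MZ replicate 1 (0.997).

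Sterol genes leaned to FO B-cells. Of 28 genes of cholesterol synthesis and uptake, 0 were higher in MZ (3 at an unadjusted p under 0.05), 5 were higher in FO, 7 had a difference above 0, and the median was -0.41. Abca1, a cholesterol exporter, had 11.5, 11.5, 14.9 and 14.1 RPKM in the MZ libraries and 34.5, 34.2, 32.2 and 36.4 RPKM in the FO libraries (log2 difference -1.37, standard error 0.08, adjusted p = 6.89e-06 from limma). The regulator Srebf2 (-1.05) and the synthesis enzymes Hmgcs1 (-1.09) and Sqle (-1.15) were also higher in FO. Without KO FO replicate 1, Srebf2 (-0.93), Hmgcs1 (-0.98) and Sqle (-0.99) fell inside the fold limit, as did Srebf2 without WT FO replicate 1 (-0.999). Glycolysis had 1 of 22 genes called in each direction, Pfkm (1.13), lost with a pseudocount of 1 and after quantile normalization, and the glucose transporter gene Slc2a6 (-1.96). Of 16 lysosomal protease genes tested, Ctsb, the cathepsin B gene, was called higher in MZ (1.48, with a share of 0.128 of its exon length overlapping another gene).

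Of 30 interferon-stimulated genes tested, 7 were higher in MZ, 0 higher in FO (4 at an unadjusted p under 0.05) and 20 were above 0 (median 0.44). Isg15 had 26.2, 24.9, 28.02 and 32.2 RPKM in the MZ libraries and 5.82, 4.85, 9.29 and 7.85 RPKM in the FO libraries (log2 difference 1.96, standard error 0.11, adjusted p = 6.64e-06 from limma). Mx1 (1.34), Oas2 (1.33), Ifit3 (1.27), Gbp2 (1.26), Rsad2 (1.18) and Gbp3 (1.095) were the others, whereas Irf7 (-0.59) and Usp18 (0.01) did not pass. Of 25 immediate early and heat shock genes, 1 was called, Ier2, which was higher in FO (-1.54), with overlap, and lost its call under 6 alternatives, among them without WT MZ replicate 2, WT FO replicate 1, KO FO replicate 1 or KO FO replicate 2 (adjusted p = 0.0612 to 0.0941 from limma). Without KO MZ replicate 1 its difference was -1.04 (adjusted p = 0.0437 from limma). Fos, Jun and Egr1 varied more between libraries of a subset than between subsets. Egr1 had 136, 37.01, 3.32 and 45.5 RPKM in the MZ libraries and 84.5, 36.7, 15.2 and 25.6 RPKM in the FO libraries (-0.13, standard error 0.798).

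**Figure D4:**
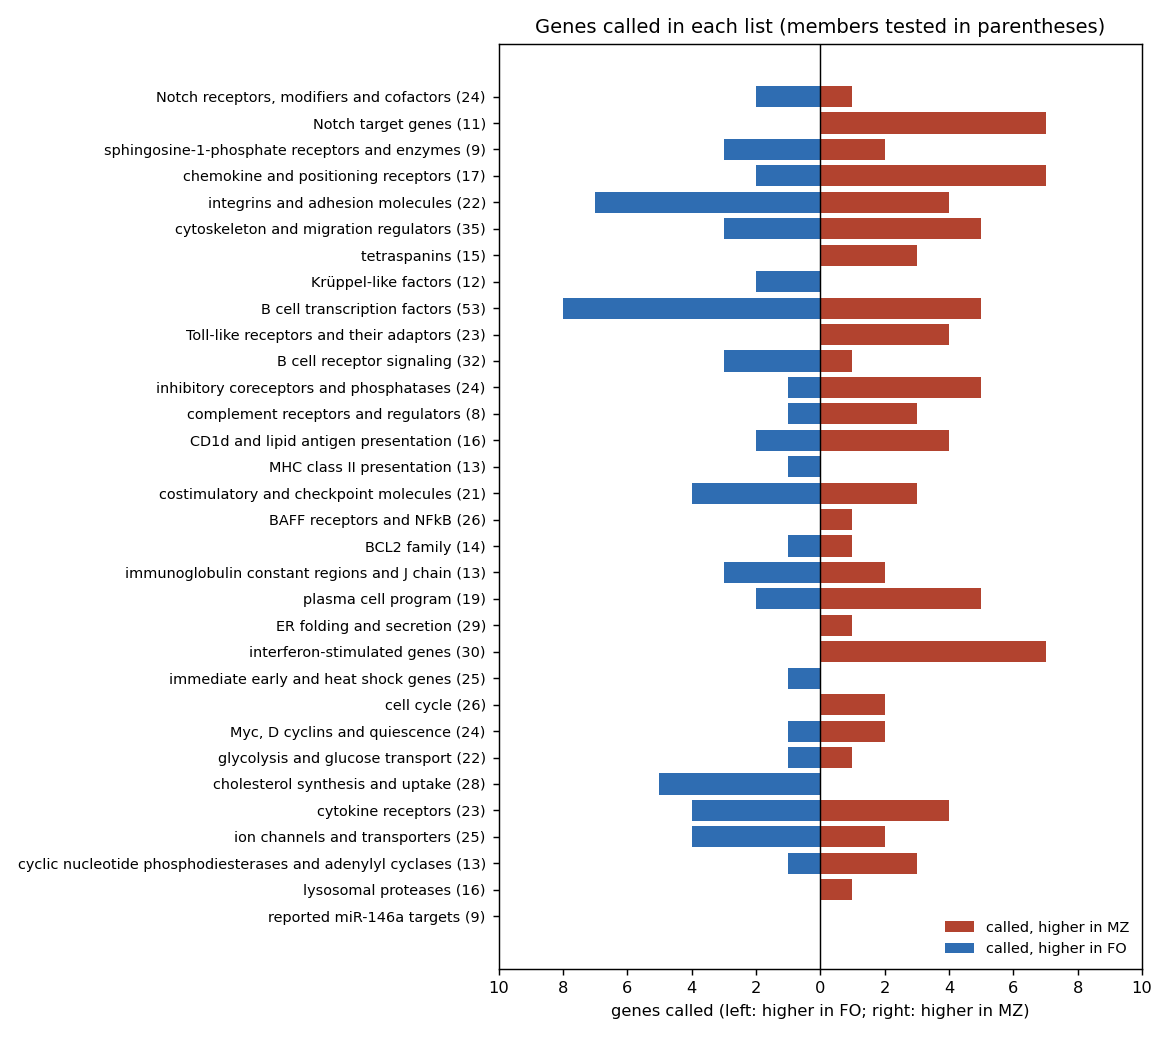
Number of tested members called higher in MZ and higher in FO for each gene list, without the lists of cell type markers. Notch targets, chemokine receptors and interferon-stimulated genes reach 7 calls higher in MZ, of 11, 17 and 30 tested. The transcription factors, a longer list, hold 8 calls higher in FO of 53 tested, and the integrin and adhesion genes 7 of 22.

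Markers of other cells were low and moved with subset and library. T cell markers summed to 82.5 to 97.8 RPKM in MZ and 145 to 166 RPKM in FO, mostly from Cd2 and Lck, and 2 of 12 tested, Trbc1 (-1.196) and Trbc2 (-1.35), were called higher in FO. The defining Cd3d, Cd3e and Cd3g reached at most 1.59 RPKM in MZ and 2.79 RPKM in FO, and Trbc1 lost its call under 2 alternatives and Trbc2 under 8, among them without WT MZ replicate 1, KO MZ replicate 1, WT FO replicate 1, WT FO replicate 2 or KO FO replicate 2 (-0.91 to -1.42). Macrophage and monocyte markers summed to 25.5 to 51.4 RPKM in MZ and 10.7 to 24.8 RPKM in FO, with 4 of 10 tested called higher in MZ, Spic (1.48), Hmox1 (1.41), Csf1r and Vcam1. Hmox1 lost its call under 4 alternatives, among them without WT MZ replicate 2, KO MZ replicate 2 or WT FO replicate 1 (adjusted p = 0.0535 to 0.0631 from limma), and Spic under 0. Of the 10 macrophage and monocyte markers tested, 9 had a log2 difference above 0, with a median of 1.01. Limma-voom called 6 of them higher in MZ and 1 higher in FO. Siglec1, Fcgr1 and Marco were under 0.5 RPKM in every library. The part of these cells in the values of Cd36, Csf1r, Vcam1 and Itgax was not tested. The summed neutrophil markers ranged from 6.68 to 34.3 RPKM in MZ and from 0.896 to 26.2 RPKM in FO, with 0 of 3 called by limma or limma-voom and 0 at an unadjusted p under 0.05. Itgax was the dendritic cell marker called of 2 tested, and Prf1, the perforin gene (2.45, 9.22 against 1.25 RPKM), the natural killer cell marker called of 3 tested, while Ncr1, Klrb1c and Eomes were under 1 RPKM. Of 2 erythroid and platelet markers tested, Hbb-b1 was called higher in MZ (1.13), has a near-identical copy and lost its call under 7 alternatives, among them without WT MZ replicate 2, KO MZ replicate 2, WT FO replicate 1 or KO FO replicate 1 (adjusted p = 0.0530 to 0.0642 from limma), and the carbonic anhydrase gene Car2 was higher in FO, with 0.618, 0.6799, 0.124 and 0.636 RPKM in the MZ libraries and 9.999, 9.77, 7.78 and 11.3 RPKM in the FO libraries (log2 difference -3.37, standard error 0.21, adjusted p = 9.55e-06 from limma).

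Of the 8 general B-cell markers, 0 were called in either direction by limma or limma-voom, with 3 at an unadjusted p under 0.05 higher in MZ and 3 at an unadjusted p under 0.05 higher in FO. Markers of other B-cell states were also compared. Of 8 transitional B-cell markers tested, 0 were higher in MZ (1 at an unadjusted p under 0.05) and 4 higher in FO, namely Vpreb3 (-2.55), Atp1b1, Ms4a4c (-1.94) and Sox4 (-1.31), with a median of -1.103. Vpreb3, a partner of the immature BCR, had 8.56, 14.3, 10.3 and 19.1 RPKM in the MZ libraries and 66.9, 75.2, 81.6 and 79.1 RPKM in the FO libraries (log2 difference -2.55, standard error 0.21, adjusted p = 4.38e-05 from limma). Of 11 B1 cell markers, 4 were higher in MZ (Fcrl5, Ptpn22, Plscr1 and Bhlhe41) and 2 higher in FO, Ahnak and Spn, which encodes CD43 (-1.74), and Cd5 was not called (0.31). Of 6 germinal center markers tested, Bcl6, Rgs13 and Mybl1 (-1.11) were higher in FO and 0 higher in MZ (0 at an unadjusted p under 0.05), with a median of -0.93.

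The comparison was repeated within each genotype. In WT mice 698 genes were higher in MZ (5.97% of genes tested) and 441 higher in FO (3.77%), and in KO mice 722 (6.17%) and 418 (3.57%). Of these, 597 were higher in MZ in both genotypes, 85.5% of the WT and 82.7% of the KO calls, and 374 were higher in FO in both, 84.8% and 89.5%. Of the 1308 genes called in either genotype, 11 had opposite signs. The test of the difference itself, the interaction of subset and genotype in limma, called 0 of 11696 genes (0%), with 112 genes at an unadjusted p under 0.05, and the smallest adjusted p was 0.703. Limma-voom on recovered reads also called 0, with 67 genes at an unadjusted p under 0.05. The standard error of such a difference is larger than that of the subset difference, as for Hes5, whose log2 difference was 2.12 in WT and 2.54 in KO with a difference of 0.42 (standard error 0.295).

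**Figure D5:**
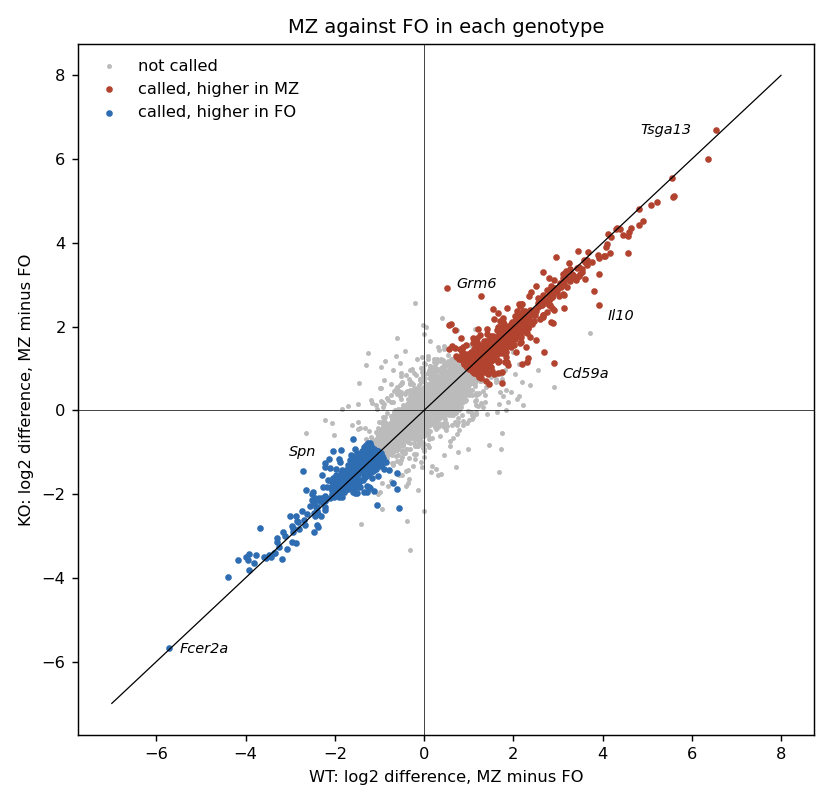
Log2 difference MZ minus FO in the KO libraries against that in the WT libraries for each tested gene. Color marks genes called higher in MZ or higher in FO in the comparison with genotype as a covariate. Most called genes lie near the diagonal, and Grm6 lies above it.

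The 4 genes with the smallest p of this interaction were Grm6, Mir421, Trbj2-5 and Gm25193, and none passed the adjustment. Grm6, a glutamate receptor gene, had 1.18, 1.805, 29.3 and 28.9 RPKM in the MZ libraries and 0.7201, 1.05, 4.003 and 2.895 RPKM in the FO libraries. Its KO libraries were higher than the WT libraries in both subsets, its log2 difference between subsets was 0.52 in WT and 2.92 in KO, and the adjusted p of the interaction was 0.703. A share of 0.111 of its exon length overlaps another gene. Mir421, Trbj2-5 and Gm25193 are short features with few reads: Mir421 had 4.55, 4.98, 10.5 and 8.03 RPKM in the MZ libraries and 8.03, 8.03, 4.74 and 4.27 RPKM in the FO libraries, Trbj2-5 was at 0 in all MZ libraries and at 0, 0, 1.83 and 2.47 RPKM in FO, and Gm25193 had 4.56, 4.36, 1.53 and 1.76 RPKM in the MZ libraries and 1.95, 1.76, 1.85 and 2.08 RPKM in the FO libraries.

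The mature miRNA deleted in the KO mice, mmu-miR-146a-5p, is shown for its seed, bases 2 to 8, in capitals. It lies on the - strand at chr11:43374435-43374456 in RefSeq GRCm38.p6.
mmu-miR-146a-5p: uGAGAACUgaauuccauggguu
Of 9 reported targets of this miRNA tested, 0 were called in either direction by limma or by limma-voom on recovered reads, with 1 at an unadjusted p under 0.05 higher in MZ and 5 at an unadjusted p under 0.05 higher in FO, and the median was -0.17. Irak1, a kinase of TLR signaling, had the smallest p of them, with 58.9, 60.5, 62.5 and 61.2 RPKM in the MZ libraries and 41.2, 45.5, 45.8 and 45.8 RPKM in the FO libraries (log2 difference 0.44, standard error 0.04, adjusted p = 1.32e-04 from limma), a difference within the fold limit that did not overlap. Traf6, its partner, was at 11.1 ± 0.521 RPKM in MZ and 11.9 ± 0.731 RPKM in FO (-0.101), and Numb, an inhibitor of Notch, at 7.32 ± 0.296 and 8.296 ± 0.4296 RPKM (-0.17). Numb and Notch2 differed between subsets by -0.14 and -0.18 in WT and by -0.195 and -0.305 in KO on the log2 scale, and the adjusted p of the interaction was 0.9997 for Numb and 0.9997 for Notch2. For the Notch targets Dtx1 and Hes1, the log2 differences were 2.34 and 1.61 in WT and 1.97 and 1.36 in KO. That of Hes5, given above, was larger in KO, and the interaction called none of these genes. In MZ, KO replicate 1 had 193 RPKM of Dtx1 and 36.5 of Hes1, and KO replicate 2 had 222 and 46.1. In FO, these libraries had 62.9 and 43.7 RPKM of Dtx1, and 15.7 and 15.6 of Hes1. With both genotypes and without KO MZ replicate 1, the differences were 2.23 for Dtx1 and 1.58 for Hes1.

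T1 and T2 libraries, which the comparison did not use, showed on which side of the MZ and FO means the precursors lay. T2 lay nearer to FO than to MZ for 690 of the 741 genes higher in MZ (93.1%) and for 403 of the 449 genes higher in FO (89.8%). T1 lay nearer to FO for 597 (80.6%) and 306 (68.2%). After quantile normalization these T1 counts were 531 (71.7%) and 323 (71.9%), so the gap between the directions depended on the scaling. For T2 they were 668 (90.1%) and 415 (92.4%). Ighm was at 29337 and 35988 RPKM in WT and KO T1 replicate 2, against 11196 and 15967 RPKM in replicate 1. The effect of such abundant transcripts on the T1 positions was not tested. Genes that were low in T1, T2 and FO alike included Tsga13, with a mean of 0.0978 RPKM in T1 and 0.0832 RPKM in T2, Asb2 (0.493 and 0.740 RPKM), Tlr3 (0.330 and 1.29 RPKM) and Hes5 (1.11 and 0.799 RPKM). Genes with T2 nearer to FO and T1 on the MZ side included Itgb7 (22.9 RPKM in T1 and 82.4 RPKM in T2). Bach2 (56.2 and 44.6 RPKM) and Vim (187 and 155 RPKM) were at or above the FO level at both earlier stages.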

How the data were processed

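RNA was taken from MZ and FO B-cells sorted from spleens of WT and KO mice, and libraries were made with a kit that does not mark strand. The authors removed adapters and low-quality reads, mapped what remained with TopHat (mm10, at most 2 mismatches per read), kept reads with a single alignment and deposited RPKM values per gene, computed with scripts of their own; the version of the aligner is not given in the sources used here. DESeq and edgeR, which the authors used on counts, were not used here. The table has 38355 genes, of which 36602 identifiers were found in GENCODE M21 (GRCm38), the source of coordinates and exon overlaps.

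RPKM were tested as log2(RPKM + 0.5) with limma 3.58.1 (lmFit and eBayes with trend) in R 4.3.3, with genotype as a covariate and p-values adjusted by Benjamini-Hochberg over the 11696 genes with a mean over 1 RPKM in either subset. Models of the 4 groups gave the comparison within genotypes and the interaction. Summaries used Python 3.11.15, pandas 2.3.3 and numpy 2.4.6, and the statistics were run on simulated data. The simulated libraries were independent, with a common spread for all genes, no outlying library and no shared deviation of same-numbered replicates. They therefore do not cover these features of the data. Read numbers were recovered from the steps of the RPKM values, whole within 0.01 reads for 23190 of the 23194 genes above 0, which gave depths of 13503388 to 26386684 reads and the input of limma-voom. Depth limits low genes most, since 1 read is a large share of their value.

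The subsets and the 42 gene lists (856 genes, of which 846 were in the file, 693 were tested, 89 called higher in MZ and 70 higher in FO) were chosen with earlier results of these data known. Named genes were the 12 largest differences per direction over 5 RPKM with no overlap, the 6 most abundant calls per direction, up to 2 calls per direction of each list, sorting markers, the 4 smallest interaction p-values and the genes the study discusses, 141 in all, without a few genes that are not reported here. Immunoglobulin and T cell receptor segments, sorting markers and genes overlapping others over a share of 0.5 of their exons were left out of the first 2 groups. Other list members are named to resolve small counts and were chosen after their values were seen.

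Alternatives were the replicate number as a block, pseudocounts of 0.1 and 1, no filter, median-ratio scaling, quantile normalization, all 16 libraries in one model, limma-voom, no fold limit and leaving out each library. The fit without the KO replicate 1 libraries was chosen after seeing the data. Promoter motif shares of gene sets were not used because promoters were matched for 66.9% of the genes called higher in MZ, 64.1% of those higher in FO and 72.6% of all tested, so that check is void.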

Additional observations from a re-analysis of the deposited data

Results flagged for a closer look

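Of 282 groups of 4 libraries examined for the named genes, 21 had a highest or lowest library whose gap to the nearest of the others exceeded Dixon's critical value. Chance gives this in about 1 in 20 groups.

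KO MZ replicate 1 was the lowest MZ library in 8 of them. There Cxcr7 was at 19.0 RPKM (the other 3 MZ libraries at 29.2 to 31.1), Maml3 at 0.351 (0.526 to 0.557), Marcksl1 at 6.83 (19.7 to 22.4), Bmf at 4.14 (4.59 to 4.64), Il10 at 0.848 (8.11 to 11.9), Myc at 58.0 (189 to 221), Fcrl5 at 198 (204 to 205) and Car2 at 0.124 (0.618 to 0.680). Fcrl5 and Bmf thus differed by little in size.

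WT MZ replicate 1 stood apart for Psap at 812 RPKM (692 to 703 in the others), Ahr at 21.0 (13.3 to 14.3), Cd200 at 2.23 (3.63 to 3.93) and Trbc2 at 0.212 (1.71 to 2.23). WT MZ replicate 2 did so for Cd93 at 0.356 (0.288 to 0.290).

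Among the FO libraries, KO replicate 1 stood apart for S1pr3 at 3.19 RPKM (2.71 to 2.77), Mxd4 at 38.8 (32.5 to 33.1), Kcnk5 at 12.7 (9.99 to 10.2) and Cd93 at 1.17 (2.42 to 2.55). WT FO replicate 1 stood apart for Tlr3 at 1.19 (1.80 to 1.92), Prdm1 at 0.807 (0.481 to 0.529) and Irak1 at 41.2 (45.5 to 45.8), and KO FO replicate 2 for Dtx4 at 1.53 (1.66 to 1.67). All but Trbc2 and Irak1 are called genes whose call was kept without the library in question, and Irak1 was not called.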

How the results depend on the processing

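The counts of 741 and 449 calls kept within 1.5 times their value under every alternative run except removal of the fold limit, which gave 3299 genes higher in MZ and 2755 higher in FO (1916 and 1596 in WT, 2003 and 1690 in KO). Leaving out 1 library gave 711 to 780 and 430 to 462 calls, 627 to 713 and 374 to 469 in WT, and 621 to 930 and 363 to 481 in KO. The fit with the replicate block gave 761 and 460 calls (744 and 464 in WT, 752 and 456 in KO) and changed no call among the 124 named genes that were called, while 12 list members that were not called became so, among them Cxcr4 (adjusted p = 0.00952), Klf2 (0.0251) and the immediate early genes Atf3, Egr2, Fosl2, Jund and Nr4a2. Same-numbered MZ and FO libraries deviated together from their group means (correlation over genes 0.50 in WT and 0.35 in KO), but with 2 replicates per group these are the 2 independent values, and no label ties a number to a shared pool or day, so the replicate block is given as a hint and the samples were not taken as pairs. Of the 154 called list members reported, 31 lost their call in at least 1 alternative, 19 of them with 1 library left out, and of 532 that were not called, 46 were called in at least 1 alternative other than removal of the fold limit. The interaction of subset and genotype stayed at 0 calls except without a filter on low values, where it called 23 genes, 20 of them with at most 1 read in any library. Log2 differences of 2 named genes that were not called reversed in some settings, and the cause was not tested: Mir421 ranged from -0.11 to 0.32 with 1 library left out and was -0.19 without the KO replicate 1 libraries, and Egr1 ranged from -0.75 to 0.68 and was 0.50 without the KO replicate 1 libraries. Of the 42 lists, the median log2 difference changed sign after quantile normalization in 3 (immunoglobulin constant regions from 0.03 to -0.18, cell cycle from 0.03 to -0.09 and lysosomal proteases from 0.07 to -0.08) and after median-ratio scaling in 2 (inhibitory coreceptors and phosphatases from 0.01 to -0.02 and endoplasmic reticulum folding from 0.01 to -0.02). The share of promoters with a motif was not run as an alternative, since under 80% of genes had a promoter. With 2 libraries per group, differences between genotypes have the least precision.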

Other observations

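Of the 741 genes called higher in MZ and the 449 called higher in FO, 89 and 70 were on a gene list. The following protein-coding genes were on none, had no overlap between the 4 MZ and 4 FO libraries and were chosen after their values were seen. Myof, the membrane repair protein myoferlin, had 101, 94.4, 97.5 and 90.7 RPKM in the MZ libraries and 3.95, 4.39, 4.23 and 4.17 RPKM in the FO libraries (log2 difference 4.36, standard error 0.05, adjusted p = 2.26e-08 from limma). Sema7a, a membrane-anchored semaphorin, had 96.9, 78.8, 80.5 and 89.7 RPKM in the MZ libraries and 6.73, 6.79, 10.6 and 7.88 RPKM in the FO libraries (log2 difference 3.37, standard error 0.13, adjusted p = 1.23e-06 from limma), and Nrp2, a receptor for other semaphorins, was at 7.898 ± 0.988 RPKM in MZ and 0.201 ± 0.0535 RPKM in FO (SD, n = 4 each). Cdh17, a cadherin of intestinal epithelium, was at 33.2 ± 4.51 RPKM in MZ and 2.36 ± 0.507 RPKM in FO (3.57). Mpeg1, which encodes the pore-forming perforin-2, had 72.4, 78.5, 108 and 80.8 RPKM in the MZ libraries and 6.62, 6.72, 11.4 and 9.24 RPKM in the FO libraries (log2 difference 3.26, standard error 0.11, adjusted p = 7.57e-07 from limma). Ptafr, the receptor for platelet-activating factor, was higher in MZ (3.38), as was Pla2g7, whose product degrades that lipid (4.72). Adrbk2, a kinase that desensitizes G protein-coupled receptors, was at 23.8 ± 2.66 RPKM in MZ and 1.24 ± 0.178 RPKM in FO (3.797). The drug efflux pump gene Abcb1a (3.996), the calcium channel gene Trpm2 (3.77), the DNase gene Dnase1l3 (3.14) and the protease inhibitor gene Serpine2 (4.17) were also higher in MZ.

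On the FO side, Zfp318, a regulator of the splicing that allows IgD to be made, had 10.99, 13.8, 15.9 and 14.3 RPKM in the MZ libraries and 75.8, 74.3, 74.6 and 76.9 RPKM in the FO libraries (log2 difference -2.43, standard error 0.09, adjusted p = 9.00e-07 from limma). Lmo2, a cofactor of hematopoietic transcription factors, had 33.8, 39.8, 35.01 and 36.1 RPKM in the MZ libraries and 118, 139, 135 and 131 RPKM in the FO libraries (log2 difference -1.84, standard error 0.07, adjusted p = 1.38e-06 from limma). Dusp4, a phosphatase of MAP kinases, was at 1.797 ± 1.67 RPKM in MZ and 15.7 ± 8.02 RPKM in FO (-3.02), and the stress gene Gadd45g at 1.805 ± 0.966 and 19.1 ± 2.103 RPKM (-3.202). The membrane protein gene Emp3 was at 13.9 ± 3.03 RPKM in MZ and 100.2 ± 13.3 RPKM in FO (-2.82). Enzymes of glycan synthesis were among these genes too, Cmah, which makes a sialic acid (-1.81), and B3gnt5, which extends glycolipids (-1.99).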
